A study of Rattus norvegicus with 9 samples.

Results

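Integrin and laminin genes were followed in the brains of rats after cerebral ischemia and reperfusion, with and without Danhong injection (DHI). They were found by gene symbol, as non-control probes named after an integrin alpha chain, an integrin beta chain from 1 to 8, or a laminin alpha, beta, or gamma chain. Where a gene had more than 1 probe, the probe with the highest mean signal over the 9 arrays stood for it. The genes described are 29, carried by 36 probes, among the 26276 different gene names on the array. They are 8 leukocyte integrin chains, 14 other integrin chains, and 7 laminin chains. Itga3, Itga9, Itgav, Itga2b, Lama3, Lama4, and Lamb1 were not analysed here.

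Each group held 3 male Sprague-Dawley rats on a normal chow, with 1 array per rat, and all were sampled at day 14. Sham rats were sham-operated and received the solvent into the tail vein. I/R rats, called model in the labels, had the middle cerebral artery closed by a nylon suture for 2 h and then reopened. DHI rats, called DH in the labels, had the same occlusion and then received Danhong injection, a preparation of the herbs danshen and honghua, daily into the tail vein. Whether I/R rats received the solvent is not told by the labels. The RNA came from the infarcted hemisphere, so infarct core, border, spared tissue, and any invading blood cells were measured together. In such bulk RNA, fewer cells of a type and less RNA per cell cannot be told apart.

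Integrins are cell surface receptors made of 1 alpha and 1 beta chain, which bind matrix proteins or proteins on other cells and connect them to the cytoskeleton. The chains that pair with beta 2 or beta 7 are carried mainly by leukocytes and microglia, and serve adhesion to vessels, phagocytosis, and contact between immune cells. Laminins are trimers of an alpha, a beta, and a gamma chain that build basement membranes, in the brain above all around vessels, and several integrins with a beta 1 or beta 4 chain bind them.

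Values are log2 intensities with the array's own 75th percentile subtracted, so a value of 0 marks a probe at that percentile, and 1 unit is a 2-fold change. Values of different probes are not compared with each other. A gene was tested when every array of some group gave a signal well above background, which held for 27 of the 29 genes, and 22 of the 29 were well above background on all 9 arrays. The untested genes are Itgae, the alpha E chain, which was well above background on 0 of 9 arrays with values between -9.65 and -8.76, and Itga2, a collagen receptor chain, which was so on Sham 2, I/R 1, I/R 2, and DHI 1. A gene is said to have passed when limma gave an unadjusted p under 0.05 and a fold change (FC) over 1.5. Adjusted p-values are those of Benjamini and Hochberg over all 23747 probes tested and are given for the integrin and laminin genes that passed in I/R versus Sham. Counts over lists of other genes are by the unadjusted p.

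The 75th percentile of spot intensity ran from 1816.3 to 3464.4 over the arrays, 75.2% to 78.9% of the probes were well above background, and 0 probes were saturated. The Sham and I/R arrays shared 1 scan stamp, and the DHI arrays shared another. Whether these were different slides is not told by the labels. Any effect of this scan batch and of DHI cannot be told apart. Of the brain markers checked, 4 of 4 neuronal, 4 of 4 astrocyte, and 3 of 3 oligodendrocyte genes were well above background on all Sham arrays. The DHI arrays did not form a tight group for the genes described here, since DHI 1 stood near the I/R arrays and DHI 2 and DHI 3 near the Sham arrays. Why DHI 1 differed was not tested and is not told by the labels. It was kept in DHI as labelled, so every DHI mean and every difference with DHI holds it unless it is said to be left out.

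Some of the probes lie over the end of the coding sequence that makes an integrin's tail inside the cell, and they are shown because they tell which part of the transcript was read. Most alpha chains carry the residues glycine, phenylalanine, phenylalanine, lysine, and arginine where the chain leaves the membrane, and the capitals mark the codons of that motif that a script found in each probe, either whole or, at an end of a probe, in part. The 60-base probes are written 5′ to 3′ in the sense of the transcript, with rn4 coordinates taken from the files.
Itgal, alpha L, chr1:186594579-186597988, plus strand: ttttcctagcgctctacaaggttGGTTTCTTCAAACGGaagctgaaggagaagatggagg
Itgam, alpha M, brightest probe, chr1:187385524-187385583, plus strand: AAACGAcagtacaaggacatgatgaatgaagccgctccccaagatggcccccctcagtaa
Itgam, alpha M, second probe, chr1:187385032-187385565, plus strand: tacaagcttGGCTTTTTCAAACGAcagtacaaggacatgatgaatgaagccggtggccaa
Itgax, alpha X, chr1:187416145-187416204, plus strand: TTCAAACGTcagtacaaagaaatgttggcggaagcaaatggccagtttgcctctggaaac
Itga1, alpha 1, chr2:47107893-47112038, minus strand: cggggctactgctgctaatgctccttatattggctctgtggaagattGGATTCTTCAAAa
The probes of Itgal and the second probe of Itgam hold 5 codons of the motif, and those of Itga1, Itgax, and the brightest of Itgam hold 4, 3, and 2. The probes of Itga1 and Itgal and the second Itgam probe map to ranges longer than 60 bases. Both Itgam probes share a run of 34 bases, so they are not separate readings of the gene. The brightest Itgam probe and the Itgax probe matched at 34 of 57 bases when laid over each other without gaps, with a longest shared run of 8 bases. The second Itgam probe matched the Itgax probe at 34 of 45 bases and the Itgal probe at 34 of 46. The longest shared run was 8 bases in both.

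Beta chain tails carry a motif of asparagine, proline, any residue, and tyrosine, which adaptor proteins such as talin bind. Its codons are in capitals in the probes of Itgb3, for which the files give no position, and of Itgb7.
Itgb3, beta 3: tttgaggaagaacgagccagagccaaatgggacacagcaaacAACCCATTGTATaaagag
Itgb7, beta 7, chr7:140971597-140971780, minus strand: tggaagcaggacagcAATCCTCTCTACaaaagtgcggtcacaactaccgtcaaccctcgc

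In I/R versus Sham, integrin and laminin chains were mostly higher. Of the 27 genes tested, 20 were higher and 1, Lamb3, was lower, while 20.8% of all probes tested passed as higher and 22.3% as lower. Itgal, Itgax, and Itgb3, counted as higher, entered the test only through their I/R arrays, so their p-values are descriptions only. Of the 22 genes well above background on all 9 arrays, 15 were higher and 1 lower. With the adjusted p in place of the unadjusted p, 20 of the 27 passed, against 31.5% of all probes. Values on the Sham and I/R arrays were fully separate for 22 of the 27 genes, against 62.5% of all probes. The median log2 FC of the 27 was 1.91, and that of all probes was -0.10.

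The adjusted p-values of these 20 genes lay between 0.0396 and 0.0454, close to the threshold. With any single Sham array left out, or without DHI 3, I/R 1, or I/R 2, 0 of the members passed with the adjusted p, and without I/R 3, DHI 1, or DHI 2 there were 20 to 22. At the unadjusted p, 20 of the 21 genes passed whichever of the 9 arrays was left out. The exception was Lamc3.

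By class, leukocyte integrins had the largest median change in I/R versus Sham. Of the 7 tested, 6 were higher and 0 lower, with a median log2 FC of 3.35, or 2.46 with Itgal and Itgax at their lower bound. Of the 13 other integrins tested, 8 were higher and 0 lower, with a median of 1.64. The 7 laminins divided into 6 higher and 1 lower, with a median of 1.81. With normexp background correction this order turned, with medians of 0.83 for leukocyte integrins, 1.08 for other integrins, and 1.45 for laminins. The difference between the classes was not tested.

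**Figure D1:**
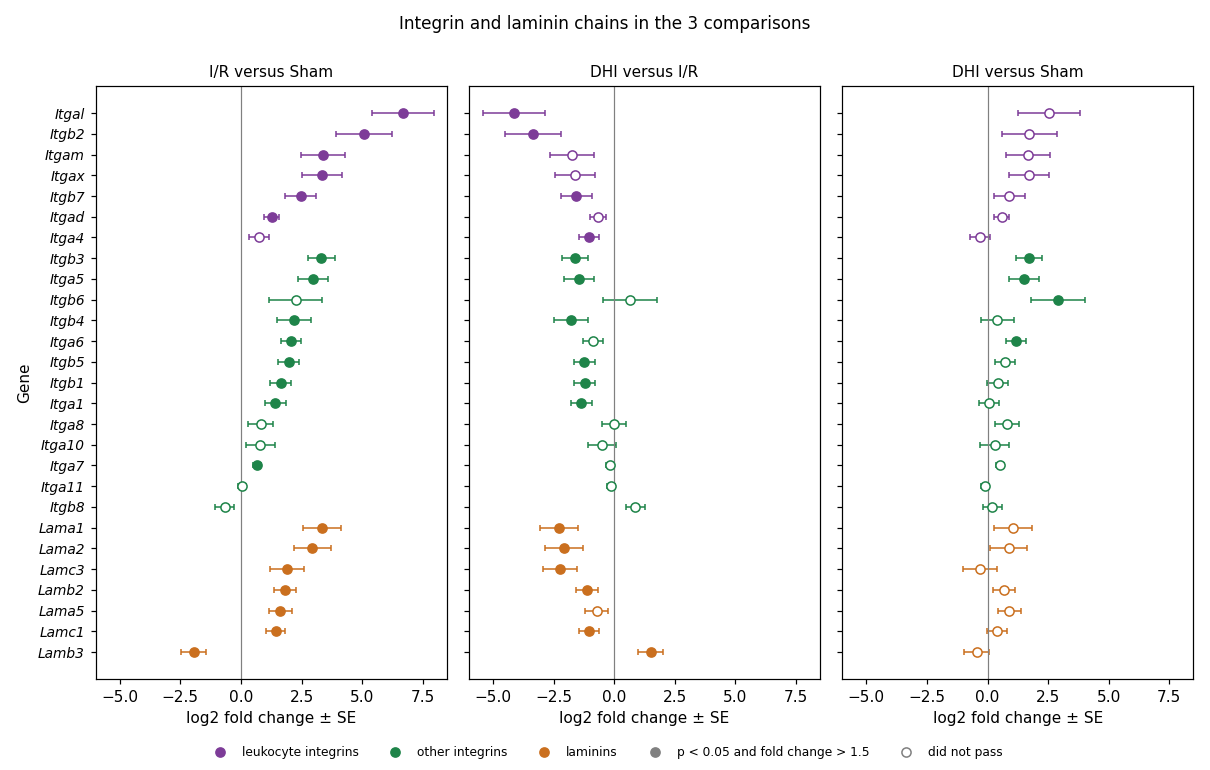
Log2 fold change ± SE (limma, 3 arrays per group) of the 27 genes tested in the 3 comparisons between groups, with filled points for genes that passed (unadjusted p under 0.05 and FC over 1.5). Lamb3 is the 1 gene left of 0 among the filled points for I/R versus Sham, and the Sham values of Itgal, Itgax, and Itgb3 were not well above background.

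When DHI was set against I/R, 15 of the 27 genes were lower in DHI and 1 was higher, against 10.5% and 11.5% of all probes. The higher one was Lamb3, which was lower in I/R versus Sham, and both comparisons share the I/R arrays. By class, 4 leukocyte integrins, 6 other integrins, and 5 laminins were lower. Itgal and Itgb3 are among them and were tested only through their I/R arrays. Of the 22 genes well above background on all 9 arrays, 11 were lower and 1 higher. With the adjusted p, 0 genes passed in limma, and the adjusted p of each of the 16 was 0.196, so every DHI versus I/R call below is by the unadjusted p. With the methods' t-test 0 genes passed. Both groups were fully separate for 1 gene, Itga1, against 9.54% of all probes.

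The median log2 FC in DHI versus I/R was -1.63 for leukocyte integrins, -0.88 for other integrins, and -1.12 for laminins, against 0.10 for all probes. With no scaling between arrays, the median of all probes moved to -0.36, and 20 genes were lower and 1 higher. With normexp background correction, 10 genes were lower and 2 higher, and the medians were -0.32 for leukocyte integrins, -0.05 for other integrins, and -1.02 for laminins, against 0.23 for all probes. With array weights, which let limma down-weight deviating arrays, 23 genes passed, 22 of them with the adjusted p. Without DHI 1, 22 genes passed, and 21 did so with the adjusted p. Without DHI 2, DHI 3, I/R 1, or I/R 2, the count was 3, 4, 3, or 5. Itga1, Itgal, and Lamc3 passed whichever array was left out, with Itgal tested only through its I/R arrays.

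The 3 DHI arrays differed from each other in the same way for nearly every gene. Among the 20 genes that were higher in I/R, DHI 1 had the highest value of the DHI arrays in 20, and it lay within or above the range of the I/R arrays in 19. DHI 2 was nearer to the I/R mean than to the Sham mean in 0 of the 20, and within or below the Sham range in 12. For DHI 3 these counts were 2 and 7. Within the I/R group, I/R 3 had the lowest value in 18 of the 20.

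**Figure D2:**
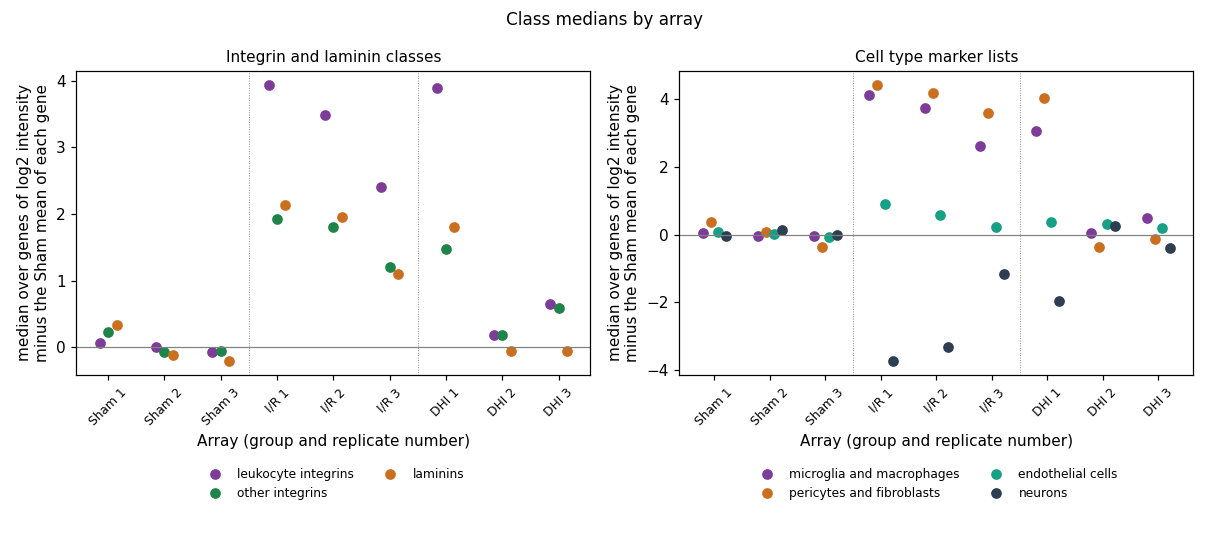
Median over the genes tested of the log2 intensity minus each gene's Sham mean, on each of the 9 arrays, for the 3 classes (left; 7 leukocyte integrins, 13 other integrins, 7 laminins) and for 4 lists of cell type markers (right). The 3 classes stand above the Sham arrays on the 3 I/R arrays and DHI 1, with leukocyte integrins at 3.94, 3.48, and 2.40 in I/R and at 3.89, 0.18, and 0.65 in DHI.

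In DHI versus Sham, 4 genes were higher and 0 lower, against 2.52% and 1.06% of all probes. They were Itga5, Itga6, Itgb3, and Itgb6, all among the other integrins, and 0 passed with the adjusted p (0.709 for each, limma), while 5 genes of the 27 had an unadjusted p under 0.05. The Sham and DHI arrays did not overlap for 8 of the 27 genes, against 18.6% of all probes. Of these 8, 4 were leukocyte integrins and 4 other integrins. Itgal, Itgax, and Itgb3 are among them, with no Sham array and only DHI 1 of the DHI arrays well above background. For Itgad, DHI 2 (-6.70) lay next to Sham 2 (-6.71). The median log2 FC was 1.66 for leukocyte integrins, 0.52 for other integrins, and 0.69 for laminins. For leukocyte integrins it was 0.90 with the Sham values of Itgal and Itgax set to the lowest signal well above background. Itgb3 passed whichever array was left out but not with the methods' t-test. The count for all members was 11 without DHI 2 and 1 without either Sham 2 or Sham 3.

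Itgb2 encodes the beta 2 chain, which all 4 of the alpha chains L, M, X, and D need to reach the cell surface (probe at chr20:11446736-11446795, minus strand). Its values were -3.28, -3.34, and -3.61 on the Sham arrays, 2.38, 1.92, and 0.67 on the I/R arrays, and 1.28, -3.88, and -2.44 on the DHI arrays. Sham and I/R did not overlap, with I/R well above, DHI 1 lay among the I/R arrays, and DHI 2 was the lowest of all 9 arrays. Itgb2 changed by a log2 FC of 5.07 ± 1.15 (SE) in I/R versus Sham (33.6-fold, adjusted p = 0.0396, limma) and -3.34 ± 1.15 (SE) in DHI versus I/R. The latter ran from -4.82 to -2.24 when single arrays were left out and did not pass without DHI 2, DHI 3, I/R 1, or I/R 2.

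Itgal encodes alpha L, which with beta 2 forms the receptor by which lymphocytes and other leukocytes hold on to Icam proteins. It stood at -9.88, -9.94, and -9.22 in Sham, where no array was well above background, and at -2.31, -2.44, and -4.24 in I/R. In DHI it was -3.78, -9.19, and -8.44, and only DHI 1 was well above background. Itgal, tested only through its I/R arrays, was at least 57.3-fold higher in I/R than in Sham (adjusted p = 0.0396, limma). Against I/R, the log2 FC of DHI was -4.14 ± 1.29 (SE), with the arrays overlapping through DHI 1.

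Itgam encodes alpha M, the chain of complement receptor 3 and a common marker of microglia and other myeloid cells. Its brightest probe read -2.19, -2.02, and -1.89 in Sham, 2.27, 1.45, and 0.37 in I/R, and 1.92, -1.73, and -1.31 in DHI. The I/R and Sham arrays did not overlap, and DHI 1 alone of the DHI arrays reached the I/R range. The log2 FC was 3.40 ± 0.91 (SE) in I/R versus Sham (10.5-fold, adjusted p = 0.0402, limma), and -1.73 ± 0.91 (SE) in DHI versus I/R, which did not pass. The latter ran from -2.88 to -1.05 when single arrays were left out, and it passed without DHI 1 and with array weights. The second probe gave 5.05 ± 1.30 (SE) and -2.80 ± 1.30, so both probes had the same sign and the same calls.

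Itgax and Itgad encode alpha X, a chain common on dendritic cells and macrophages, and alpha D, which is found on tissue macrophages. Itgax stood at -9.89, -9.95, and -10.00 in Sham, not well above background, at -6.01, -6.46, and -7.33 in I/R, and at -6.05, -9.23, and -9.41 in DHI, where DHI 1 alone was well above background. Itgax, also tested only through its I/R arrays, was at least 4.71-fold higher in I/R than in Sham (adjusted p = 0.0396, limma). For Itgad (probe at chr1:187462990-187463537, plus strand) the values were -6.97, -6.71, and -6.94 in Sham, -5.19, -5.70, and -5.97 in I/R, and -5.59, -6.70, and -6.59 in DHI. Itgad rose in I/R with a log2 FC of 1.26 ± 0.32 (SE) (adjusted p = 0.0396, limma), and the DHI arrays as well as the I/R arrays lay above all Sham arrays. Neither gene passed in DHI versus I/R, with log2 FCs of -1.63 ± 0.83 (SE) and -0.68 ± 0.32 (SE). When single arrays were left out these ran from -2.72 to -1.04 for Itgax, which passed without DHI 1, and from -1.03 to -0.46 for Itgad, which passed without DHI 1 or I/R 3. Both also passed with no scaling, array weights, or the replicate block. With normexp background correction neither passed in I/R versus Sham, and their signs in DHI versus I/R turned.

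Itgam, Itgax, and Itgad are direct neighbours in the rat genome, with 0 protein-coding genes between Itgam and Itgax and 0 between Itgax and Itgad in the RefSeq gene order. On rn4 their probes lie 30.6 kb and 46.8 kb apart. All 3 rose in I/R, and Itgal, which also rose, has its probe on the same chromosome.

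Itgb7 encodes the beta 7 chain of lymphocytes that home to mucosa, and Itga4 the alpha 4 chain, which pairs with beta 7 or beta 1 and binds Vcam1. Itgb7 was -7.32, -7.73, and -7.64 in Sham, -4.75, -5.01, and -5.53 in I/R, and -5.09, -7.97, and -6.91 in DHI, where 2 of 3 arrays were well above background. Its I/R arrays were all above its Sham arrays. Its log2 FC was 2.46 ± 0.63 (SE) in I/R versus Sham (adjusted p = 0.0396, limma) and -1.56 ± 0.63 (SE) in DHI versus I/R, and the latter passed without I/R 3 or DHI 1 but in no other fit with an array left out.

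Itga4 (probe at chr3:62097157-62097216, plus strand) was -4.35, -4.85, and -5.46 in Sham, -4.07, -4.00, and -4.37 in I/R, and -4.32, -5.61, and -5.64 in DHI. The Sham and I/R arrays overlapped, and DHI 2 and DHI 3 were the lowest of the 9 arrays. Itga4 did not pass in I/R versus Sham (0.74 ± 0.41, SE, adjusted p = 0.175, limma) and was lower in DHI than in I/R (-1.04 ± 0.41, SE). That call was lost without DHI 2, DHI 3, I/R 1, or I/R 2, where the log2 FC was between -1.0 and -0.81.

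**Figure D3:**
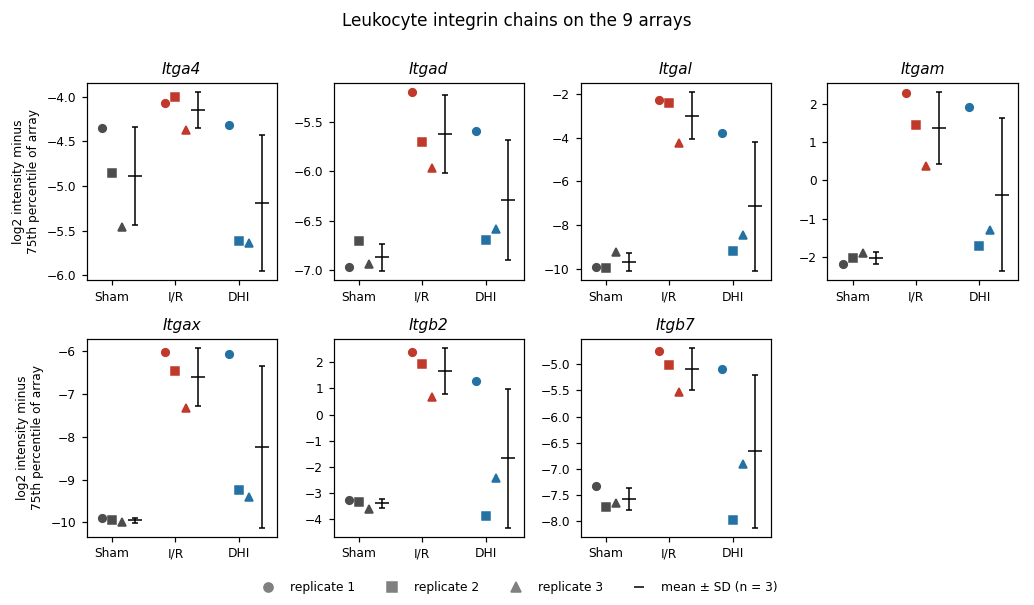
Log2 intensity with the array's 75th percentile subtracted (y axis, own scale in each panel) of the 7 leukocyte integrin chains tested, by group, with 1 symbol per array and mean ± SD (n = 3). The I/R arrays lie above the Sham arrays without overlap for 6 of the 7 genes, all but Itga4, and in all 7 panels DHI 1 is the highest DHI array.

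Itgb1, the beta chain shared by most receptors for laminin, collagen, and fibronectin (probe at chr19:58600532-58600591, minus strand), had values of -0.94, -0.78, and -0.79 in Sham, 1.21, 0.85, and 0.37 in I/R, and 0.63, -1.18, and -0.69 in DHI. Sham and I/R were separate, with DHI 1 among the I/R arrays. Itgb1 changed by a log2 FC of 1.64 ± 0.44 (SE) in I/R versus Sham (adjusted p = 0.04, limma) and -1.22 ± 0.44 (SE) in DHI versus I/R. Its second probe gave 1.55 ± 0.32 (SE) and -0.83 ± 0.32 and passed in both comparisons. Its DHI versus I/R call by the brightest probe was lost without DHI 2, DHI 3, I/R 1, or I/R 2, and the same held for Itgb5.

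The laminin receptor chains Itgb4, Itga6, and Itga7 all rose in I/R. Itgb4, the beta 4 chain that epithelia use in hemidesmosomes and which brain vessels also express (probe at chr10:106116571-106116630, plus strand), was -0.91, -0.97, and -1.39 in Sham, 1.08, 1.03, and 1.18 in I/R, and 1.17, -1.95, and -1.27 in DHI. Its I/R values were nearly equal, DHI 1 matched them, and DHI 2 was the lowest of the 9. Its log2 FC was 2.19 ± 0.69 (SE) in I/R versus Sham (adjusted p = 0.0454, limma) and -1.78 ± 0.69 (SE) in DHI versus I/R, which did not pass when any of the I/R arrays, DHI 2, or DHI 3 was left out.

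Itga6, the alpha chain that pairs with beta 4 or beta 1 (chr3:54263800-54263859, plus strand), was -3.57, -4.06, and -4.10 in Sham, -1.01, -1.84, and -2.67 in I/R, and -2.29, -2.89, and -2.97 in DHI. Here the DHI arrays lay close together, above all Sham arrays, and only DHI 1 reached the I/R range. Itga6 had log2 FCs of 2.07 ± 0.41 (SE) in I/R versus Sham (adjusted p = 0.0396, limma), -0.88 ± 0.41 (SE) in DHI versus I/R, which did not pass, and 1.19 ± 0.41 (SE) in DHI versus Sham, which did. The last did not pass without Sham 2 (1.12), Sham 3 (1.1), or DHI 1 (0.98).

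Itga7, the laminin receptor chain of muscle that vascular smooth muscle also makes (chr7:2264646-2264705, plus strand), was -4.48, -4.68, and -4.66 in Sham, -3.87, -4.02, and -3.91 in I/R, and -3.90, -4.32, and -4.04 in DHI. Both the I/R and the DHI arrays were above all Sham arrays. The changes were small, at 0.67 ± 0.16 (SE) in I/R versus Sham (adjusted p = 0.0396, limma), -0.16 ± 0.16 (SE) in DHI versus I/R, and 0.52 ± 0.16 (SE) in DHI versus Sham, whose FC of 1.43 was under the threshold. The rise in I/R also fell under the FC threshold with quantile normalization, with normexp background correction, and in the authors' series table.

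Among collagen receptor chains, only Itga1 passed. Itga1 encodes alpha 1, which with beta 1 binds collagen IV of basement membranes. It was 0.20, -0.02, and -0.38 in Sham, 1.85, 1.40, and 0.82 in I/R, and 0.76, 0.07, and -0.85 in DHI. Its I/R arrays did not overlap with those of either other group, and DHI 3 was the lowest of all arrays. The log2 FC was 1.42 ± 0.43 (SE) in I/R versus Sham (adjusted p = 0.0426, limma) and -1.36 ± 0.43 (SE) in DHI versus I/R, the latter between -1.75 and -0.94 when single arrays were left out. Its neighbour Itga2, with 0 protein-coding genes between them, could not be tested and ran from -8.53 to -8.38 in Sham, from -7.93 to -6.79 in I/R, and from -8.33 to -6.48 in DHI. Itga10 and Itga11 did not pass in any comparison, with log2 FCs of 0.80 ± 0.59 (SE) and 0.03 ± 0.16 (SE) in I/R versus Sham. The second probe of Itga10 gave -0.07 ± 0.25 (SE).

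Receptor chains that bind matrix proteins through an arginine, glycine, and aspartate motif follow. Itgb3, the beta chain of the platelet fibrinogen receptor and of a vitronectin receptor, was -8.73, -9.32, and -8.98 in Sham, not well above background on any array. It was -5.08, -5.58, and -6.39 in I/R and -6.17, -8.27, and -7.45 in DHI, with DHI 1 alone well above background there. The groups stood in the order Sham, DHI, I/R with no overlap of Sham with either other group. Itgb3, tested only through its I/R arrays, was at least 8.78-fold higher in I/R than in Sham (adjusted p = 0.0396, limma). Its log2 FC in DHI versus Sham was 1.71 ± 0.54 (SE), though only DHI 1 of these arrays was well above background. That call was lost with the methods' t-test. In DHI versus I/R the log2 FC was -1.61 ± 0.54 (SE), which did not pass without I/R 1 or DHI 2.

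Itga5, which with beta 1 forms the fibronectin receptor (chr7:142254464-142254523, minus strand), was -7.75, -7.28, and -7.96 in Sham, -4.30, -4.68, and -5.12 in I/R, and -4.55, -6.87, and -7.04 in DHI. All I/R and all DHI arrays lay above the Sham arrays, and DHI 1 alone reached the I/R range. The log2 FC was 2.96 ± 0.62 (SE) in I/R versus Sham (adjusted p = 0.0396, limma), -1.45 ± 0.62 (SE) in DHI versus I/R, and 1.51 ± 0.62 (SE) in DHI versus Sham. Its DHI versus I/R call was lost in each fit with an array left out other than that without DHI 1. Among the fits with an array left out, its DHI versus Sham call was kept only in those without a DHI array. Without DHI 1 that log2 FC was 0.71 ± 0.29 (SE).

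Itgb5, a beta chain of vitronectin receptors that glia and macrophages use (chr11:68644285-68644344, minus strand), was -1.52, -1.49, and -1.07 in Sham, 1.01, 0.86, and -0.09 in I/R, and 0.27, -1.18, and -1.01 in DHI. All I/R arrays exceeded the Sham arrays, and DHI 2 and DHI 3 lay in or close to the Sham range. Itgb5 changed by a log2 FC of 1.96 ± 0.43 (SE) in I/R versus Sham (adjusted p = 0.0396, limma) and -1.23 ± 0.43 (SE) in DHI versus I/R. The second probe passed in both with 1.22 ± 0.30 (SE) and -0.73 ± 0.30.

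Itgb6 and Itgb8 are beta chains of receptors that release active TGF-beta, and they were taken up in detail after their values were seen. Itgb6, an epithelial chain (chr3:42286421-42286480, minus strand), was -5.45, -7.10, and -6.36 in Sham, -5.78, -3.34, and -3.04 in I/R, and -1.99, -5.76, and -2.44 in DHI. I/R 1 and DHI 2 lay with Sham, while the other I/R and DHI arrays lay above. It did not pass in I/R versus Sham (2.26 ± 1.1, SE) and was higher in DHI than in Sham (2.91 ± 1.1, SE), a call lost without Sham 2 (2.51), Sham 3 (2.88), DHI 1 (2.21), or DHI 3 (2.43). The mean log2 value of 3 choroid plexus markers was 0.49 on I/R 3, 1.97 on DHI 1, and 0.18 on DHI 3 and between -4.91 and -2.48 on the other 6 arrays, and its part in the Itgb6 values was not tested.

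Itgb8, a chain of astrocytes and neurons (chr6:146494978-146495037, minus strand), was -3.16, -3.68, and -3.32 in Sham, -3.90, -4.06, and -4.25 in I/R, and -4.19, -2.66, and -2.73 in DHI. The I/R arrays and DHI 1 lay below all other arrays, the reverse of most members. Its log2 FCs of -0.68 ± 0.39 (SE) in I/R versus Sham and 0.87 ± 0.39 (SE) in DHI versus I/R did not pass. Both passed without DHI 1. The I/R versus Sham change also passed with only the 2 groups in the fit, array weights, or the methods' t-test. Itga8, a chain that binds nephronectin and fibronectin (chr17:86427344-86427403, minus strand), overlapped between all groups, with log2 FCs of 0.81 ± 0.51 (SE) and -0.01 ± 0.51 (SE).

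**Figure D4:**
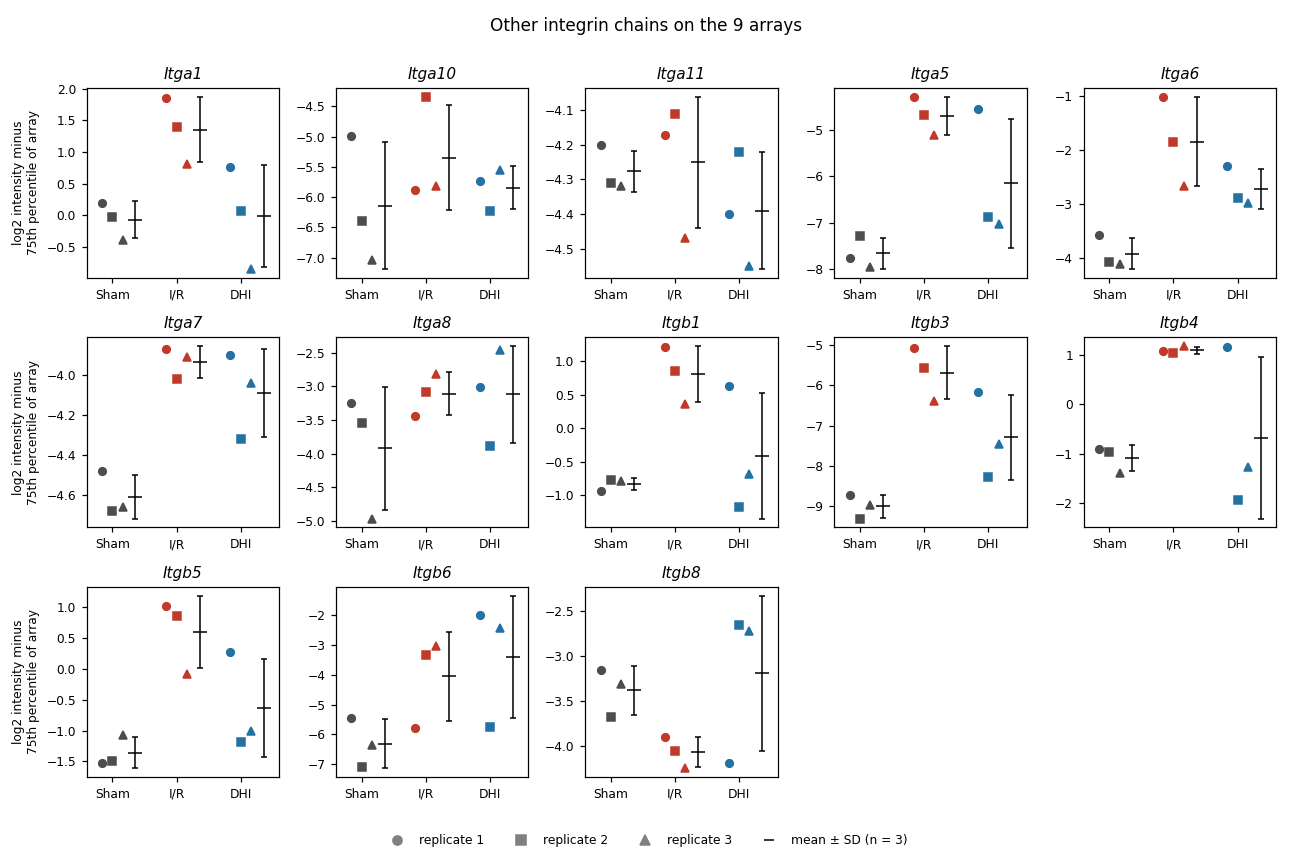
Log2 intensity with the array's 75th percentile subtracted (y axis, own scale in each panel) of the 13 other integrin chains tested, by group, with 1 symbol per array and mean ± SD (n = 3). Itga1 is the gene whose 3 DHI arrays all lie below the I/R arrays, and Itgb8 has its lowest values on the I/R arrays and DHI 1.

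Laminin alpha chains decide which integrins bind a trimer. Lama1, a chain of early basement membranes and of the pial surface (probe at chr9:106973476-106973535, plus strand), was -4.77, -5.61, and -5.13 in Sham, -1.21, -1.89, and -2.42 in I/R, and -2.07, -5.22, and -5.03 in DHI. DHI 1 and the I/R arrays stood far above the other 5 arrays. Lama1 changed by a log2 FC of 3.33 ± 0.79 (SE) in I/R versus Sham (adjusted p = 0.0396, limma) and -2.27 ± 0.79 (SE) in DHI versus I/R, lost without I/R 1, DHI 2, or DHI 3.

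Lama2, a chain that astrocytes and pericytes lay down around vessels (chr1:18879878-18879937, plus strand), was -3.99, -4.22, and -4.51 in Sham, -0.95, -1.09, and -1.83 in I/R, and -1.29, -4.55, and -4.29 in DHI. Its order of arrays was much the same as that of Lama1, with DHI 2 and DHI 3 in or near the Sham range. Its log2 FC was 2.95 ± 0.78 (SE) in I/R versus Sham (adjusted p = 0.04, limma) and -2.08 ± 0.78 (SE) in DHI versus I/R, lost without DHI 2, DHI 3, I/R 1, or I/R 2. Lama5, an alpha chain of endothelial basement membranes (chr3:169234188-169234247, minus strand), was -2.52, -3.24, and -3.22 in Sham, -1.14, -1.03, and -1.96 in I/R, and -1.15, -2.99, and -2.14 in DHI, where DHI 1 lay in the I/R range. It rose in I/R (1.62 ± 0.48, SE, adjusted p = 0.0418, limma) and was the only laminin not to pass in DHI versus I/R (-0.72 ± 0.48, SE).

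Lamb2, the beta 2 laminin chain of vessels and synapses, was -1.29, -1.79, and -1.85 in Sham, 0.48, 0.17, and -0.15 in I/R, and 0.16, -1.60, and -1.42 in DHI. Sham and I/R were separate, with DHI 1 among the I/R arrays. The log2 FC was 1.81 ± 0.45 (SE) in I/R versus Sham (adjusted p = 0.0396, limma) and -1.12 ± 0.45 (SE) in DHI versus I/R. The files place its probe on an unplaced piece of chromosome 16 of rn4.

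Lamc1, the gamma chain of most laminins (chr13:68241505-68241564, minus strand), was 0.03, -0.08, and -0.30 in Sham, 1.62, 1.34, and 0.99 in I/R, and 1.27, -0.24, and -0.20 in DHI. DHI 1 and the I/R arrays again lay above the other 5 arrays. The log2 FC was 1.43 ± 0.40 (SE) in I/R versus Sham (adjusted p = 0.0405, limma) and -1.04 ± 0.40 (SE) in DHI versus I/R, and the second probe gave 1.43 ± 0.29 (SE) and -0.88 ± 0.29 with both calls. The DHI versus I/R call of Lamc1 was lost without DHI 2, DHI 3, I/R 1, or I/R 2, and so was Lamb2, which was also lost without Sham 2 or Sham 3.

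Lamc3, the gamma 3 chain of the cortex surface and the retina (chr3:11040365-11042516, plus strand), was -6.82, -7.28, and -7.37 in Sham, -4.59, -4.90, and -6.27 in I/R, and -5.89, -8.60, and -7.95 in DHI. DHI 2 and DHI 3 were below all Sham arrays, and 1 of the 3 DHI arrays was well above background. Its log2 FC was 1.91 ± 0.70 (SE) in I/R versus Sham (adjusted p = 0.0658, limma), past the unadjusted threshold only, and it did not pass at all without Sham 2 (1.85), Sham 3 (1.8), I/R 1 (1.58), or I/R 2 (1.73). In DHI versus I/R it was -2.22 ± 0.70 (SE) and between -3.02 and -1.66 when single arrays were left out, each time past the threshold. That call was lost with normexp background correction (-0.28) and with the methods' t-test.

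Lamb3, the beta 3 chain of a laminin of epithelia, went opposite to the other laminins tested (chr13:109187343-109189861, plus strand). It was -3.73, -3.90, and -3.82 in Sham, -6.08, -6.01, and -5.23 in I/R, and -5.55, -3.38, and -3.88 in DHI. The I/R arrays were below all Sham arrays, DHI 2 and DHI 3 were above all I/R arrays, and DHI 1 lay in the I/R range. The log2 FC in I/R versus Sham was -1.96 ± 0.52 (SE) (adjusted p = 0.04, limma). In DHI versus I/R it was 1.5 ± 0.52 (SE), a call lost with the methods' t-test and without DHI 2, DHI 3, I/R 1, or I/R 2. In DHI versus Sham it was -0.45 ± 0.52 (SE), which did not pass. The mean log2 value of 4 neuronal markers moved with Lamb3, from 0.89 to 1.13 in Sham, from -2.65 to -0.11 in I/R, and -0.78, 1.19, and 0.62 in DHI, and its part in the Lamb3 values was not tested.

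**Figure D5:**
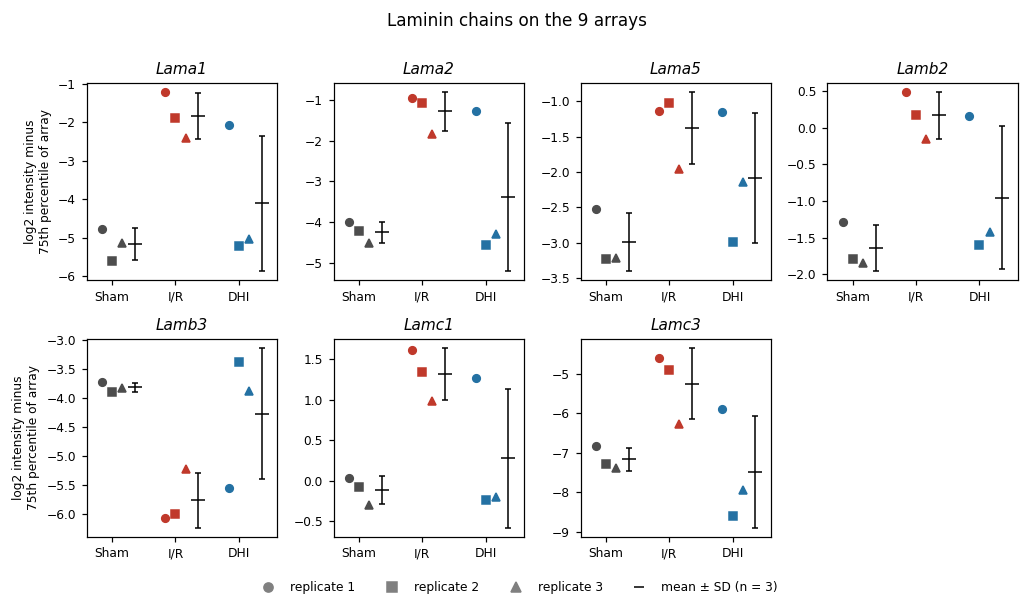
Log2 intensity with the array's 75th percentile subtracted (y axis, own scale in each panel) of the 7 laminin chains, by group, with 1 symbol per array and mean ± SD (n = 3). The I/R arrays lie above all Sham arrays for 6 genes and below them for Lamb3, and DHI 1 is the DHI array nearest to I/R in every panel.

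Of the partners of these receptors inside the cell, a list of 25 adaptor and signalling genes had 17 higher and 3 lower in I/R versus Sham, with a median log2 FC of 1.42. Against I/R, the DHI arrays had 0 higher and 11 lower, with a median of -0.79. Of all probes tested, 20.8% were higher and 22.3% lower in I/R versus Sham, and 11.5% higher and 10.5% lower in DHI versus I/R. These shares also stand beside the counts of the lists below. Fermt3, the kindlin of blood cells that beta chains need for activation, had log2 FCs of 3.76 ± 0.83 (SE) and -2.22 ± 0.83 in these comparisons. For Syk, a kinase that acts below integrins and immune receptors, it was 3.75 ± 0.73 and -2.27 ± 0.73. Fermt2, the kindlin of most other tissues, did not pass in either, at 0.12 ± 0.16 and -0.19 ± 0.16. Fermt1, the remaining kindlin of the list, passed in both, at 2.96 ± 0.70 and -1.92 ± 0.70. Tln2, the talin of brain and muscle, was lower in I/R at -0.89 ± 0.35 by the unadjusted p only (adjusted p = 0.0777, limma), while Tln1, the talin of blood cells and many other tissues, was higher at 2.32 ± 0.52.

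On the side of the ligands, 10 genes that leukocyte integrins bind were tested. In I/R versus Sham 4 were higher and 2 lower, against 20.8% and 22.3% of all probes. In DHI versus I/R 1 was higher and 2 lower, against 11.5% and 10.5%. The median log2 FCs were 1.13 and -0.74. Icam1, the main endothelial ligand of the beta 2 integrins, had a log2 FC of 3.12 ± 0.78 (SE) and -2.02 ± 0.78 in these comparisons, and Vcam1, the ligand of alpha 4, 1.89 ± 0.50 and -1.30 ± 0.50. The genes lower in I/R were Icam5, made by neurons of the forebrain, at -1.62 ± 0.59 (adjusted p = 0.063, limma), and Thy1, which neurons also carry, at -2.26 ± 0.62. Of 12 matrix ligands of the other integrins, 9 were higher and 0 lower in I/R versus Sham, and 0 higher and 5 lower in DHI versus I/R, at medians of 2.33 and -1.41. Among them, Col4a1, a chain of basement membrane collagen, changed by 2.92 ± 0.65 and -1.82 ± 0.65.

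Of 8 laminin partners and non-integrin laminin receptors, 3 were higher and 1 lower in I/R versus Sham, against 20.8% and 22.3% of all probes. In DHI versus I/R 1 was higher and 3 lower, against 11.5% and 10.5%. The medians were 0.40 and -0.32. Nid1 and Nid2, the nidogens that join laminin to collagen IV, had log2 FCs of 3.81 ± 0.69 (SE) and 3.28 ± 0.78 in I/R versus Sham. The DHI versus I/R values were -1.71 ± 0.69 and -2.29 ± 0.78, and Nid1 was also higher in DHI than in Sham, at 2.10 ± 0.69 by the unadjusted p only (adjusted p = 0.709, limma). Dag1, the dystroglycan that ties astrocyte endfeet to laminin, did not pass, at 0.51 ± 0.19 and -0.40 ± 0.19.

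The DHI versus I/R counts of these 4 lists rest on the unadjusted p, and the adjusted p of each gene of them named above as lower was 0.196 (limma). They also depended on single arrays. Without DHI 1, 15 adaptor and signalling genes, 7 ligands of leukocyte integrins, 9 matrix ligands, and 4 laminin partners were lower in DHI. Without DHI 2 the counts were 1, 0, 1, and 0, and without DHI 3 they were the same. Without I/R 1 they were 2, 0, 1, and 0, and without I/R 2 they were 2, 0, 2, and 1. The I/R versus Sham calls of Tln2 and Icam5 were lost without any single Sham array, I/R 1, or I/R 2.

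Markers of several cell types moved with the integrins and laminins. For all marker counts, the shares of all probes were 20.8% higher and 22.3% lower in I/R versus Sham. They were 11.5% higher and 10.5% lower in DHI versus I/R, and 2.52% higher in DHI versus Sham. Of 8 markers of microglia and macrophages, 7 were higher in I/R versus Sham and 7 lower in DHI versus I/R, the exception being Cx3cr1, and their mean log2 value ran from -1.42 to -1.36 in Sham, from 1.04 to 2.5 in I/R, and was 1.58, -1.24, and -0.77 in DHI. Of 5 T cell markers tested of 6, 4 were higher in I/R and 3 lower in DHI, with means of -7.12 to -6.15 in Sham, -3.93 to -3.34 in I/R, and -3.82, -6.65, and -6.75 in DHI. Of the 6, Cd3d, Cd3g, and Cd4 were well above background on all 3 Sham arrays, Cd3e on 1, and Cd8a and Cd2 on 0. Cd8a, counted both as higher in I/R and as lower in DHI, was tested only through its I/R arrays. Its calls are descriptions only. Cd3e, which did not pass, was also tested only through its I/R arrays. Of 4 neutrophil markers tested of 5, 3 rose in I/R, and 1 was above I/R in DHI, with means of -6.47 to -5.82 in Sham, -5.44 to -4.65 in I/R, and -5.39 to -5.08 in DHI. The part of these cells in the leukocyte integrin values was not tested.

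For the cells that lay down laminin, 6 of 6 markers of pericytes and fibroblasts were higher in I/R and 5 lower in DHI versus I/R, with means of -1.43 to -0.72 in Sham, 2.34 to 3.29 in I/R, and 2.85, -1.51, and -1.19 in DHI. Of 6 endothelial markers, 3 were higher in I/R and 1 lower in DHI versus I/R, with means of -2.22 to -2.04, -1.93 to -1.15, and -1.96 to -1.75 in the 3 groups. Of 4 astrocyte markers, 3 were higher in I/R and 2 lower in DHI versus I/R, with means of 1.65 to 1.8, 2.92 to 3.48, and 1.71 to 3.07. In DHI versus Sham, 1 astrocyte marker, Gfap, was higher by the unadjusted p only (1.62 ± 0.67, SE). For pericytes and fibroblasts and for endothelial cells the count was 0. The part of these cells in the laminin values was not tested.

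The other marker lists were as follows. All 4 neuronal markers were lower in I/R versus Sham and higher in DHI versus I/R. Of 3 oligodendrocyte markers, 0 passed in either comparison, with median log2 FCs of -0.10 and 0.51. Of 3 platelet markers tested of 4, 1 was higher and 1 lower in I/R versus Sham, and 2 were higher and 1 lower in DHI versus I/R. All 3 red blood cell markers were lower in I/R versus Sham and higher in DHI versus I/R, with medians of -2.04 and 2.67. Of 3 choroid plexus markers tested of 4, 2 were higher in DHI versus Sham and 1 in I/R versus Sham. Without DHI 2 or without DHI 3, 0 markers of microglia and macrophages, pericytes and fibroblasts, endothelial cells, or astrocytes were lower in DHI versus I/R, 0 neuronal markers were higher, and 1 or 2 T cell markers were lower. The 3 red blood cell calls in I/R versus Sham went to 0 without Sham 2, Sham 3, or any single I/R array.

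Promoter sequences, from 250 bases before to 50 after the start of transcription on the RefSeq assembly GRCr8, were given for 21 of the 29 genes, and not for Itga6, Itga7, Itgad, Itgal, Itgb2, Itgb3, Itgb4, or Lamb2. They were searched for GAGGAA on both strands, a core that PU.1, the Ets factor of myeloid cells encoded by Spi1, is known to bind. It was found in 9 of the 21 (42.9%) and in 27.6% of all 33469 promoters of the same length. The promoters of Itgam, which rose in I/R, and Lamb3, which fell, are shown over the 250 bases before the start because both hold the letters (in capitals). Itgax, the neighbour of Itgam, had 0 matches. A match is a description of these letters and not a bound site.
Itgam promoter, chr1:192089342-192089591, plus strand: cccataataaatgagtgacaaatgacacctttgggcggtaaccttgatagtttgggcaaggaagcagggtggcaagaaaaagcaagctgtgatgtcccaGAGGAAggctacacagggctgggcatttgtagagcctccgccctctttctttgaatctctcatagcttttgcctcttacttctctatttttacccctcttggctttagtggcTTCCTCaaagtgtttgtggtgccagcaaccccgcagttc
Lamb3 promoter, chr13:107362303-107362552, plus strand: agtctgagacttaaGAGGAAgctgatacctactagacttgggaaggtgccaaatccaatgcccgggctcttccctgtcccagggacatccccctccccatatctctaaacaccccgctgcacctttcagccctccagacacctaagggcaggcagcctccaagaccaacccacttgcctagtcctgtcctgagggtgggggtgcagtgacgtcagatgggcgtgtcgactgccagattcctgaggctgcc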

How the data were processed

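RNA of 9 rat hemispheres, 3 each of Sham, I/R, and DHI, was hybridised to one-color Agilent arrays. The authors deposited scanner intensity values, made with Feature Extraction 10.7.1.1, background corrected within each array and not scaled between arrays. They also deposited a log2 series table of the same arrays, which served as an alternative. Here log2 of the processed intensity minus the 75th percentile of each array's non-control spots was used, with outlier spots left out and spots of a probe averaged. limma 3.58.1 (R 4.3.3) fitted all 9 arrays in 1 model with 6 residual degrees of freedom, over those 23747 of 30367 probes that were well above background on every array of some group. A fold is given as a lower bound where no array of 1 group and every array of the other was well above background. This bound set the mean of the bright group against the lowest signal among probes well above background, or the probe's own signal where higher. The script was tested on simulated data.

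Genes were grouped by symbol, with 1 gene not reported here, and the members and the gene and marker lists were chosen with earlier results of these data known. Values on every array are given for the leukocyte integrins tested, for the 8 other integrins and 6 laminins with the largest change among those that passed in I/R versus Sham, for further members that passed in DHI versus I/R, and for Lamc3, 22 genes in all, and the other members more briefly. Alternatives were other scalings, normexp background correction (offset 50), the series table, dim-probe filters, the 2 groups alone, the methods' t-test, adjusted p, array weights, a block for replicate number, the mean of a gene's probes, and leaving out each array. Probe names are those of the array design. RefSeq matched 22 accessions, all to the same symbol. The number of arrays limits the precision, with a median SE of 0.52 (log2).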

Additional observations from a re-analysis of the deposited data

How the results depend on the processing

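In I/R versus Sham, 16 to 26 genes passed over the alternatives with the unadjusted p (21 as reported), and 20 to 23 with single arrays left out. In DHI versus I/R, where 16 passed, the count was 9 with only the 2 groups in the fit, 0 with the methods' t-test, 0 with the adjusted p, 23 with array weights (22 of them with the adjusted p), and 3 to 22 with single arrays left out. In DHI versus Sham, where 4 passed, it was 1 with no scaling, 1 with the methods' t-test, 13 with array weights, 0 with the adjusted p, and 1 to 11 with single arrays left out. With normexp background correction the log2 FC in DHI versus I/R turned to 0.15 for Itgad, 0.17 for Itgax, and 0.07 for Itga7, none of which had passed, and 9 of the 27 genes were above 0, against 3 as reported. The calls of Itga4 (-0.32), Itga5 (-0.22), Itgb7 (-0.13), Itgb3 (-0.05), and Lamc3 (-0.28) were lost with it. The cause was not tested. With the replicate number as a block, 22, 19, and 5 genes passed in the 3 comparisons. The labels give no pairing, and the deviations of same-numbered arrays correlated between -0.341 and 0.476, so the numbers were not taken to pair the rats. Dim probes limit Itgal, Itgax, and Itgb3, whose Sham arrays give only bounds. The counts of the gene and marker lists with single arrays left out were added after seeing the data.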
